A study of Mus musculus with 4 samples.

Results

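The brush border of the intestinal epithelium carries enzymes that finish digestion at the cell surface. The genes described here encode 9 of them: Alpi, Sis, Lct, Anpep, Dpp4, Enpep, Treh, Mep1a and Mep1b. The rule takes them by name, as a family, and uses no measured value, but the family was proposed with earlier results of these data known. All probe sets that the platform annotation pairs with 1 of these symbols were taken, which gave 12 probe sets of 8 genes out of 45101 probe sets of 18193 genes. No probe set is paired with Sis, the sucrase-isomaltase gene, so it has no value here. Signals were called measured when over a floor on at least 1 array. The floor is a signal of 89.8 (log2 6.49), the 50th percentile over the 4 arrays together. Of the 9 genes, 6 were measured (Alpi, Anpep, Dpp4, Enpep, Mep1a and Mep1b), against 12258 of all 18193 genes. Dpp4 and Anpep were over the floor on only 2 arrays each, untreated cells among them, so passing the floor already favoured a difference in these genes.

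The mouse intestinal cells were grown from isolated crypts on fibronectin, and RNA was read on 1 Affymetrix array in each of 4 groups. One group received interleukin-17A (IL-17A, 50 ng/ml) together with fibroblast growth factor 2 (FGF2, 5 ng/ml), one IL-17A alone, one FGF2 alone, each for 6 h, and one was left untreated. All groups shared the serum- and insulin-containing medium. The strain, age and number of animals, and the culture time of the untreated cells, were not given in the sources used here. The series title states its question, how FGF2 and IL-17A act together in epithelial wound healing. No group was replicated, so each difference is a difference between arrays, with no test, p-value or standard error.

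Enterocytes, the absorptive cells of the villus, place these enzymes on microvilli, where they face the gut lumen. Disaccharidases split sugars, peptidases trim peptides to amino acids and short peptides, and neighbouring transporters take up the products. The genes are switched on as cells leave the crypt, and factors of the HNF1, HNF4, CDX and GATA families are known to act on several of them. Some of the proteins are not restricted to epithelium: aminopeptidase A (Enpep) is also known on pericytes, and aminopeptidase N (Anpep) and dipeptidyl peptidase 4 (Dpp4) on fibroblasts and leukocytes.

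The promoters of Alpi, Dpp4 and Enpep are shown as examples. The first pair of genes had lower signals on every treated array than in untreated cells, as had Anpep and Mep1b, while Enpep stayed nearly level. Each line is the 250 bases before the start of the gene in RefSeq, 5′ to 3′ on the gene's own strand, which is the minus strand of GRCm38.p6 in all 3. The regions are chr1:87101607-87101856 for Alpi, chr2:62412232-62412481 for Dpp4 and chr3:129332750-129332999 for Enpep. Capitals mark letters searched on both strands. For HNF4 these were AAAGTCCA, and for GATA factors they were GATAA. HNF1 was searched as GTTAAT. The CDX letters were CAATAAA, and the TATA box was taken as TATAAA.
Alpi: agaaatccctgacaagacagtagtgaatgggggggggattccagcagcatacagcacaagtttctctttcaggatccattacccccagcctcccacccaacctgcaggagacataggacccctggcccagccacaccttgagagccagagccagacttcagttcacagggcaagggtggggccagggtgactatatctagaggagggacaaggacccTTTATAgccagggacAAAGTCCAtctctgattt
Dpp4: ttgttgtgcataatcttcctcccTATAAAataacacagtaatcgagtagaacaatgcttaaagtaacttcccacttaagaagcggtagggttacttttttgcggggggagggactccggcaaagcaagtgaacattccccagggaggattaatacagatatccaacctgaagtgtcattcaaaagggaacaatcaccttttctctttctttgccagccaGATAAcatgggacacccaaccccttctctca
Enpep: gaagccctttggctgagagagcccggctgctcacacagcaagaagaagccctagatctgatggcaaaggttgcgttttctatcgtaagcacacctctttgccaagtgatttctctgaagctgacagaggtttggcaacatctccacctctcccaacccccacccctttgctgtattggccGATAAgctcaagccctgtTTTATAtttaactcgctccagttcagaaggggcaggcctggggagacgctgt

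In these windows the HNF4 letters stood 18 bases before the start of Alpi, and they were found in 333 of 32851 promoters of the same length (1.01%). Promoters were listed for 8 of the 9 genes (not Mep1b), and the HNF4 letters also stood in that of Treh. None of the searched letters stood in that of Anpep, which is not shown. The GATA letters were in 4 of the 8 (Dpp4, Enpep, Lct and Mep1a), against 22.6% of all promoters. The TATA letters were in 4 of the 8 (Alpi, Dpp4, Enpep and Sis), against 12.4%. In these 250 bases the HNF1 and CDX letters were found in Sis alone of the 8 (6.43% and 4.20% of all promoters), and the matches of GATA and TATA letters were shared by Dpp4, which was lower, and Enpep, which was level. The TATA matches in Sis overlap one another. A match describes the letters only.

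Alpi encodes intestinal alkaline phosphatase, which removes phosphates from lipids and from bacterial lipopolysaccharide. Its probe set (1431077_at) had a signal of 433 with both factors, 645 with IL-17A, 948 with FGF2 and 1371 in untreated cells. All 3 treated arrays lay below the untreated one, and the array with both factors was the lowest. The signal was 3.16-fold lower than in untreated cells with both factors (log2 ratio -1.66), 2.12-fold lower with IL-17A (-1.09) and 1.45-fold lower with FGF2 (-0.53). In that order, 0.334%, 0.196% and 5.85% of measured genes had a ratio as low or lower.

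How large such ratios are can be judged only from the layout, since each factor's effect can be read from a pair of arrays with and a pair without the other factor. The disagreement of these readings, taken as if it were all error, corresponds to a log2 ratio SD of 0.21 where the mean log2 signal was 8 to 10 (Alpi, Enpep and Mep1b) and 0.29 where it was under 8 (Anpep, Dpp4 and Mep1a), with 99th percentiles of absolute values of 0.62 and 0.83. It is a yardstick and not a test, and true joint effects are part of it. It was taken from signals raised to the floor, which limits the disagreement of dim genes. The 0.29 and 0.83 may therefore understate the spread of signals under 8. For Alpi the ratios with IL-17A and with both factors exceeded 0.62 and the ratio with FGF2 did not.

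**Figure D1:**
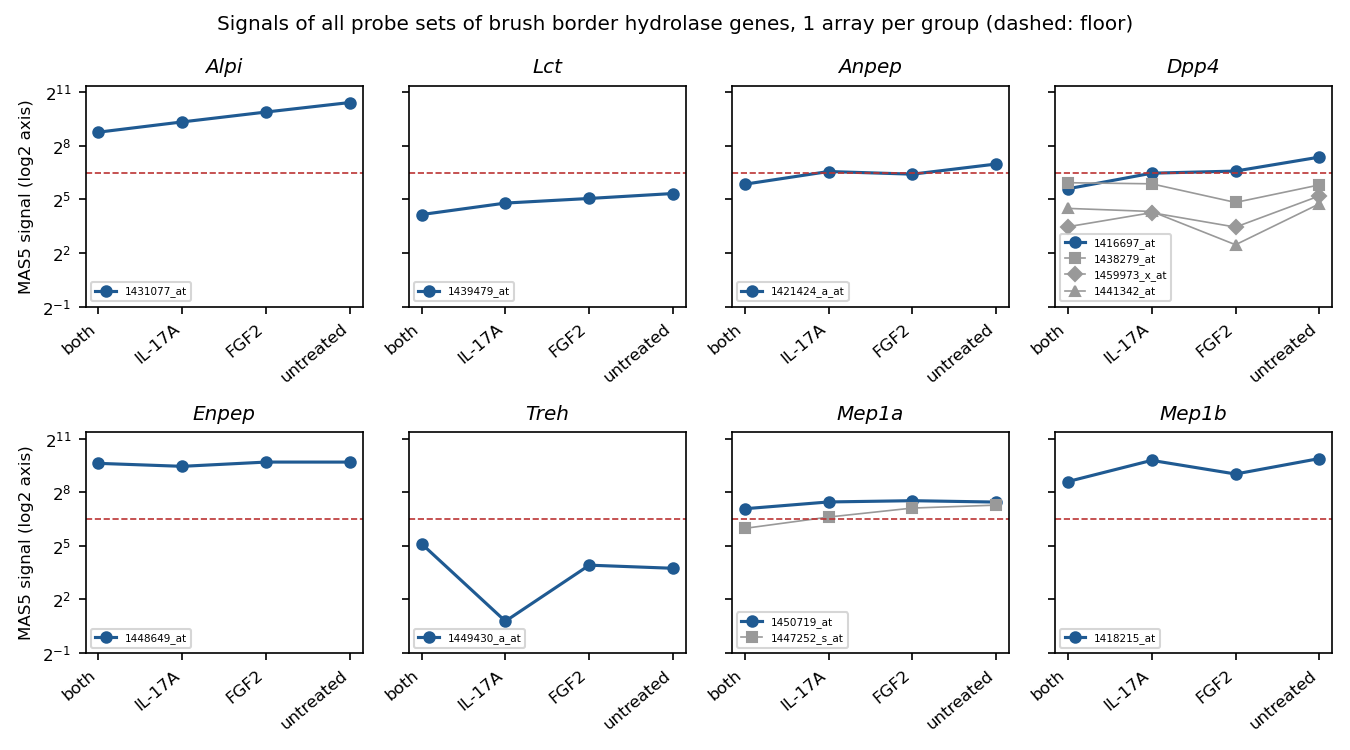
MAS5 signals (log2 axis) of all 12 probe sets of the 8 genes on the arrays with both factors, IL-17A, FGF2 and untreated; blue points are the brightest probe set of a gene, grey its other probe sets, and the dashed line the floor at 89.8. Alpi, Enpep and Mep1b were over the floor on all 4 arrays, while Lct and Treh were under it on all 4.

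Among the disaccharidases, lactase (Lct) and trehalase (Treh) were under the floor on every array. Lct had signals of 17.7 with both factors, 27.7 with IL-17A, 33.1 with FGF2 and 40.1 in untreated cells, the same order as Alpi but in the range where MAS5 values are mostly noise. Treh, the enzyme for trehalose, had 34.8 with both factors, 1.72 with IL-17A, 15.1 with FGF2 and 13.4 in untreated cells. No fold is given for either gene. Maltase-glucoamylase (Mgam), the partner of sucrase-isomaltase in starch digestion and not one of the 9, had a log2 ratio to untreated of -1.37 with both factors, -1.03 with IL-17A and -0.47 with FGF2, with signals over the floor on all 4 arrays.

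The aminopeptidases differed from each other. Anpep encodes aminopeptidase N, which removes neutral residues from peptides, and its signals were 57.5 with both factors, 94.2 with IL-17A, 85.0 with FGF2 and 126 in untreated cells. All treated arrays were below the untreated one, but with both factors and with FGF2 the signal was under the floor. The folds were at least 1.40-fold lower with both factors, 1.34-fold lower with IL-17A and at least 1.40-fold lower with FGF2, and the log2 ratios behind them, as floored, were smaller in size than 0.83. Enpep encodes aminopeptidase A, which removes acidic residues and degrades angiotensin II. It had 785 with both factors, 700 with IL-17A, 826 with FGF2 and 825 in untreated cells. Its log2 ratios to untreated were -0.07, -0.24 and 0.00 in that order, and the whole range over the 4 arrays was 0.24, so of the 6 measured genes it varied least.

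Dpp4 cleaves dipeptides behind proline or alanine and inactivates gut hormones. Its brightest probe set (1416697_at) had 48.2 with both factors, 88.2 with IL-17A, 95.8 with FGF2 and 165 in untreated cells, so the untreated array stood apart and the array with both factors was lowest. Signals with both factors and with IL-17A were under the floor, which gives at least 1.83-fold lower for each, and the signal with FGF2 was 1.72-fold lower. The log2 bound of -0.88 with IL-17A was shared by 0.441% of measured genes as low or lower. Dpp4 passed the floor only in untreated cells and with FGF2, so this place was favoured by the floor. The other 3 probe sets of Dpp4 were under the floor on all arrays, with signals from 5.49 to 61.0, and give no second reading.

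The meprins are zinc metalloproteases, of which meprin beta (Mep1b) stays in the membrane and meprin alpha (Mep1a) is largely released. Meprin beta is also known, in the mouse, to cut the mucin MUC2 loose from goblet cells. Mep1b had 387 with both factors, 882 with IL-17A, 519 with FGF2 and 947 in untreated cells. Both arrays with FGF2 were low and both arrays without it were high. Its log2 ratio to untreated was -1.29 with both factors (2.45-fold lower), -0.10 with IL-17A and -0.87 with FGF2 (1.82-fold lower). A ratio as low was found in 0.832%, 31.2% and 1.57% of measured genes.

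Between the single factors, Alpi had the lower signal with IL-17A (645, against 948 with FGF2) and Mep1b with FGF2 (519, against 882 with IL-17A). Ratios with the other factor present were also taken. Adding IL-17A to FGF2 went with a log2 ratio of -1.13 for Alpi and -0.42 for Mep1b, and adding FGF2 to IL-17A with -0.57 for Alpi and -1.19 for Mep1b. For each factor taken alone, the pair of arrays with the other factor shares no array with the pair without it. The order of the factors within a gene is not read anew, because the array with both factors cancels out of it. That order rests on the single-factor arrays alone. Whether the genes differ in their response was not tested.

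The 2 probe sets of Mep1a did not go together. The brighter one (1450719_at) had 135 with both factors, 176 with IL-17A, 184 with FGF2 and 175 in untreated cells, so only the array with both factors was lower, at a log2 ratio of -0.37. The other (1447252_s_at), of a type that can detect related transcripts, had 63.0 with both factors, 97.7 with IL-17A, 139 with FGF2 and 155 in untreated cells. In that probe set the signal was at least 1.73-fold lower with both factors and 1.59-fold lower with IL-17A. With IL-17A the log2 ratios were thus 0.01 and -0.67, and no direction is given for Mep1a with IL-17A.

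**Figure D2:**
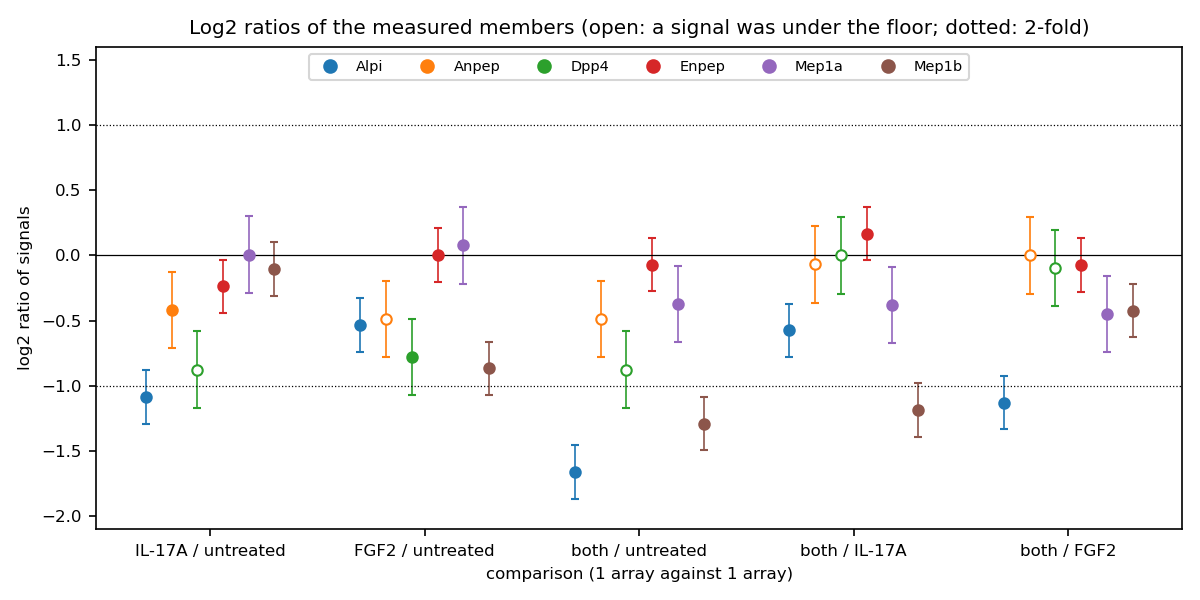
Log2 ratios of the 6 measured genes (brightest probe set) in 5 comparisons of 1 array against 1 array; "both" is IL-17A plus FGF2, bars are plus and minus the yardstick SD (0.21 or 0.29), and open points have a signal under the floor. Against untreated, Alpi was at -1.09 with IL-17A and -1.66 with both factors and Mep1b at -0.87 with FGF2, Dpp4 with both factors is a bound set by the floor, and Enpep stayed within 0.24 of 0 throughout.

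Counted over the 6 measured genes, both factors against untreated had 2 genes at least 2-fold lower (Alpi and Mep1b) and 0 higher, beside 1.73% of all measured genes lower and 0.906% higher. IL-17A against untreated had 1 lower (Alpi) and 0 higher, beside 0.228% and 0.375%. FGF2 against untreated had 0 lower and 0 higher, beside 0.963% and 0.473%. The medians of the 6 log2 ratios were -0.68 with both factors, -0.33 with IL-17A and -0.51 with FGF2, where the medians of all measured genes were 0.00, -0.01 and -0.01. Below 0 were 6 of 6, 5 of 6 and 4 of 6 genes, beside 49.6%, 52.8% and 51.6% of all measured genes. Dpp4 and Anpep are among those below 0 in each comparison. Their untreated signal helped them pass the floor, which favoured ratios below 0, so these counts and medians are not free of that choice. Without a floor, a setting chosen after seeing the data, both factors against untreated had 4 genes at least 2-fold lower, with Dpp4 at -1.77 and Anpep at -1.13, and a median of -1.21. The count over all measured genes depends on such settings too. Over the alternatives up to 799 genes were lower in this comparison, against 212 as reported. The 1.73% is therefore not the share to set beside these 4 genes.

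The array with both factors was also set against each single factor. Against IL-17A, which reads FGF2 in the presence of IL-17A, 1 of 6 was at least 2-fold lower (Mep1b, 2.28-fold) and 0 higher, beside 0.857% and 0.547% of all measured genes, with a median of -0.22. Against FGF2, which reads IL-17A in the presence of FGF2, 1 of 6 was at least 2-fold lower (Alpi, 2.19-fold) and 0 higher, beside 0.269% and 0.367%, with a median of -0.26. These comparisons share the array with both factors. With the floor added to each signal instead, Alpi was just under 2-fold with IL-17A against untreated and with both factors against FGF2 (log2 ratio -0.99 in each). A floor at the 75th percentile of signals left 3 of the genes and no gene past 2-fold against IL-17A.

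To see whether the joint response departed from the sum of the single ones, the log2 ratio with both factors was set against the sum of the log2 ratios of IL-17A and FGF2. For Alpi the ratio with both was -1.66 and the sum -1.62, a difference of -0.04. For Mep1b they were -1.29 and -0.97, a difference of -0.32, and for Enpep -0.07 and -0.24. In Dpp4 and Anpep the floor limits how low the combined signal can be, so the floored differences of 0.78 and 0.42 are not usable. With the deposited values as they stand the differences were -0.09 for Dpp4 and -0.14 for Anpep. For Mep1a it was -0.46 in the brighter probe set. The median over the 6 genes was 0.06 with floored signals, those of Dpp4 and Anpep included, and -0.12 with the deposited values as they stand, so the floor decided its sign (a 25th percentile floor gave -0.07). Over all measured genes the floored median was 0.02. The difference is the quantity from which the yardstick SD was made, so its size cannot be judged against it.

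**Figure D3:**
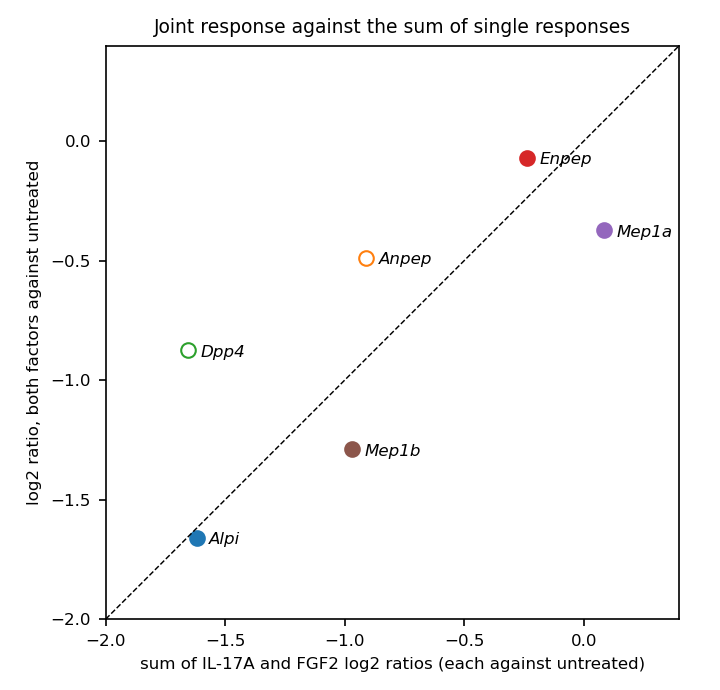
Log2 ratio to untreated with both factors (vertical) against the sum of the log2 ratios with IL-17A and with FGF2 (horizontal) for the 6 measured genes, floored signals; the dashed line marks equality and open points have signals under the floor. Alpi lies on the line at -1.62 and -1.66, while Dpp4 and Anpep lie above it, where the floor limits the combined value.

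Other hydrolases of the luminal membrane, from a list of 15, had 12 with a probe set and 9 measured. With both factors 2 of 9 were at least 2-fold lower, Mgam and the dipeptidase gene Dpep1 (log2 ratio -1.49), and 0 higher, with a list median of -0.12. With IL-17A 1 was lower (Mgam) and with FGF2 0, with 0 higher in both. With both factors Naaladl1 was at -0.60, Ace at -0.33, the neutral ceramidase gene Asah2 at 0.01 and carboxypeptidase M (Cpm) at 0.37. Xpnpep2, Plb1 and Enpp3 were over the floor on only 1 array each, so the floor held their ratios near 0. The list median of -0.12 is the floored value of Enpp3. Of relatives of the alkaline phosphatases and peptidases, the tissue-nonspecific phosphatase gene Alpl was at -0.53 with both factors, 0.17 with IL-17A and -0.52 with FGF2. The duodenal phosphatase gene Akp3 was under the floor on all arrays. Fap, the fibroblast relative of Dpp4, was at -1.13 with both factors, 0.03 with IL-17A and -0.27 with FGF2, and was the 1 gene of 9 measured relatives at least 2-fold lower with both factors.

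Apical transporters take up what the hydrolases release. Of 8 measured apical transporters, 4 were at least 2-fold lower with both factors and 0 higher, with a median of -1.01. With IL-17A and with FGF2 alone none of the 8 passed 2-fold (0 and 0), and the medians were -0.54 and -0.32. Slc3a1 and Slc7a9, the chains of the dibasic amino acid and cystine carrier, were at -1.34 and -0.95 with both factors, and Slc6a19, a carrier of neutral amino acids, at -1.32. The sodium-glucose transporter Slc5a1 and the peptide transporter Slc15a1, both among the 4, had combined signals under the floor, at -1.08 and -1.13 or lower. Slc34a2 and Slc2a2 were also over the floor in untreated cells and under it with both factors. Passing the floor favoured ratios below 0 in these genes, so the count and medians of the transporters are not free of that choice.

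Structural genes of the microvillus had smaller differences: of 21 measured, 2 were at least 2-fold lower with both factors (Tmigd1 at -1.48 and the brush border myosin gene Myo1a at -1.05) and 0 higher, with a median of -0.41. Vil1, the actin bundler villin, was at -0.69 and Ezr, the membrane linker ezrin, at -0.21. With FGF2 1 was lower (Tmigd1 at -1.33) and with IL-17A 0, and the medians were -0.30 and -0.21.

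Transcription factors known for enterocyte genes were mostly within 2-fold. With both factors 2 of 19 measured were at least 2-fold lower and 0 higher, namely Nr1h4, the bile acid receptor FXR, at -1.83, and Creb3l3 at -1.26, with a median of -0.29. Hnf4a was at -0.58 with both factors, -0.34 with IL-17A and -0.45 with FGF2, and Cdx2 at -0.33, -0.35 and -0.42. Gata6 was at -0.11 with both factors. Prdm1, the repressor of the adult enterocyte programme in suckling mice, was at 0.30 with both factors.

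**Figure D4:**
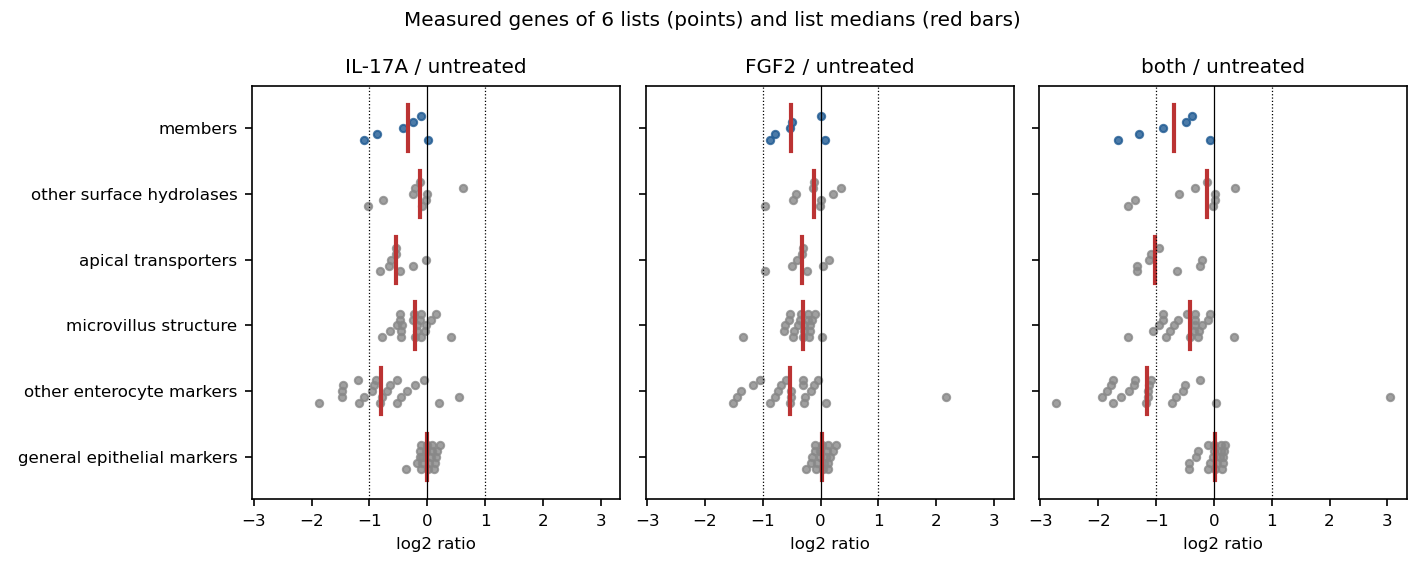
Log2 ratios to untreated with IL-17A, with FGF2 and with both factors for measured genes of 6 lists, each point a gene (brightest probe set), red bars the list medians, dotted lines 2-fold. The medians with both factors were -0.68 for the brush border hydrolases, -1.01 for apical transporters, -1.16 for other enterocyte markers and 0.02 for general epithelial markers.

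Markers of other cells in the culture were read beside these values. General epithelial markers had 20 of 20 measured and a median of 0.02 with both factors, 0.00 with IL-17A and 0.03 with FGF2, with summed signals of 214028, 212217 and 217528, against 208190 in untreated cells. Other enterocyte markers had 15 of 22 measured genes at least 2-fold lower with both factors, 7 with IL-17A and 5 with FGF2, with summed signals of 50498, 54764 and 69554, against 79952 in untreated cells. The gene higher by at least 2-fold among them was Arg2 (log2 ratio 3.05 with both factors), 1 of 22 with both factors and with FGF2 and 0 with IL-17A. The lower signals were not limited to enterocyte markers. Goblet cell markers were below 0 in 9 of 9 measured genes with both factors, 7 of 9 with IL-17A and 9 of 9 with FGF2 (medians -0.60, -0.22 and -0.46), with 1 gene at least 2-fold lower in each, Agr2. Paneth cell markers were below 0 in 4 of 4 measured genes with both factors, 2 of 4 with IL-17A and 4 of 4 with FGF2 (medians -0.31, -0.04 and -0.41), with 0 past 2-fold. Enteroendocrine markers were below 0 in 7 of 11 with both factors, 7 with IL-17A and 8 with FGF2 (medians -0.22, -0.02 and -0.08), with 0 at least 2-fold lower. Among them Cck was higher, at 1.77 with both factors and 1.90 with FGF2. Stem and progenitor markers were below 0 in 4 of 9, 5 of 9 and 2 of 9 in that order (medians 0.00, -0.04 and 0.16), with 0 past 2-fold. The part of these cell types in the values of the hydrolase genes was not tested. In bulk RNA, fewer enterocytes and less of these transcripts per enterocyte cannot be told apart.

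Markers of cells outside the epithelium were also read, and none was listed at a signal of 1 or less (0 genes in each list). Fibroblast and smooth muscle markers, 20 of 20 measured, had 8 genes at least 2-fold lower with both factors, 0 with IL-17A and 4 with FGF2, with summed signals of 109345, 135894 and 109156, against 131282 in untreated cells. As with Mep1b, their sums were lower on both arrays with FGF2. Of the 20 genes 16 were below 0 with both factors, 10 with IL-17A and 17 with FGF2 (medians -0.53, 0.01 and -0.43). The lowest with both factors were Dpt at -1.90 and Cnn1 at -1.69, which were at -2.17 and -1.41 with FGF2. Above 0 with both factors were Dcn, Vim, Fn1 and Lum, at 0.54, 0.34, 0.21 and 0.37. With FGF2 these genes were at 0.26, 0.28, 0.25 and -0.29. The part of fibroblasts and smooth muscle in the values of Dpp4, Anpep and Mep1b was not tested. Endothelial markers, 13 of 13 measured, had 1 gene at least 2-fold higher with both factors (Flt1), 0 with either factor alone and 0 lower, medians of 0.45 with both factors, -0.11 with IL-17A and 0.34 with FGF2, and summed signals of 16770, 10973 and 15302, against 11598 in untreated cells. Pericyte markers, 9 of 9 measured, had 0 genes past 2-fold in either direction in these comparisons and summed signals of 15480, 14697 and 15873, against 15282 in untreated cells. These sums hide members that went both ways, 4 below 0 and 5 above with both factors. Rgs5 and Notch3 were at -0.83 and -0.45 with both factors and at -0.73 and -0.75 with FGF2. Kcnj8 and Abcc9 were at 0.35 and 0.37 with both factors and at 0.42 and 0.45 with FGF2. The part of pericytes in the nearly level Enpep was not tested. Of leukocyte markers 11 of 20 were measured, and the T and B cell genes Cd3e, Cd3g, Cd4, Cd79a and Ms4a1 were under the floor on all arrays, as was the dendritic and myeloid integrin gene Itgax. The T cell gene Cd8a was over the floor on 3 arrays, at 113 with both factors, 97.4 with IL-17A, 53.3 with FGF2 and 97.0 in untreated cells. Ptprc, Csf1r, Cd68 and Tyrobp were over it on all 4. Markers of leukocytes had summed signals of 9555 with both factors, 4816 with IL-17A and 6413 with FGF2, against 4102 in untreated cells. Of these sums S100a8, which epithelial cells can also express, made up 3740, 717 and 1348, against 419 in untreated cells, and Cd14 made up 3081, 1318 and 2640, against 862. The other 18 genes summed to 2735, 2780 and 2425, against 2821 in untreated cells.

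Finally, genes with a pattern like the mean of the 6 measured hydrolases were sought among 10642 genes over the floor on all 4 arrays, by the Euclidean distance of log2 signals centred over the 4 arrays. The mean pattern was -0.37 with both factors, -0.03 with IL-17A, -0.01 with FGF2 and 0.42 in untreated cells. Dpp4 and Anpep are part of this mean. Their untreated signal helped them pass the floor and their lowest signals were raised to it, so neither the mean nor the search from it is free of that choice. The nearest genes were Oasl1, Pparg, Pklr, Muc2, Mpp1, Cideb, Ablim1, Lhfpl2, Hsd17b2 and Tmprss2, at distances of 0.03 to 0.08. The 6 hydrolases themselves lay further from their mean, from 0.28 (Anpep) to 0.72 (Alpi), so that mean describes none of them closely. The likeness rests on 4 arrays and is a description only.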

How the data were processed

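RNA of 4 groups of mouse intestinal cells was measured on 1 array each. The deposited file holds a log2 signal for each probe set on each array, which the authors summarised with MAS5 per the submitters' processing notes (version not given in the sources used here). After removing the log2, the mean signal without the outer 2% on each side was 500.0 for all 4 arrays, so the deposited arrays share 1 scaling target. MAS5 subtracts mismatch signals, so dim values are noisy.

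Of 45101 probe sets, 64 controls were left out, and 34945 had 1 symbol in the platform annotation, 932 several and 9160 none. Probe sets with several symbols or none were not used. Each gene was represented by its brightest probe set on average. Signals under the median of all signals were raised to it. Log2 ratios were taken between arrays, and a call was a 2-fold difference. The number of arrays limits the precision. Named were all members, genes of 17 lists, and the 10 genes nearest in pattern. Members and lists were chosen with earlier results of these data known.

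Alternatives were 2 scalings, 2 floors, the floor added to the signal, no floor, all probe sets averaged, leaving out probe sets that may read related transcripts (suffixes _x_at, _s_at and _a_at) and 2 other folds. Promoters came from RefSeq, GRCm38.p6. Calculations used Python 3.11.15, numpy 2.4.6, pandas 2.3.3 and matplotlib 3.10.9, and the code was tested on simulated arrays with 200 changed genes.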

Additional observations from a re-analysis of the deposited data

How the results depend on the processing

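No paired analysis was possible because each group has 1 array and the labels carry no replicate numbers, and no replicate could be left out for the same reason. No value turned its direction under an alternative where the log2 ratio had been at least 1 in size. Of 148 alternative values of the medians and counts over the hydrolase genes, 130 stayed within 1.5 times the count or 0.21 of the median. The 130 include every count of genes higher by the fold, which was 0 as reported and stayed 0, so they overstate the stability of the other values. Those that moved follow. With the floor at the 25th percentile 8 genes were measured, 4 were at least 2-fold lower with both factors against untreated, and the median against IL-17A was -0.48. Over all genes measured at that floor, 618 of 16486 were lower with both factors against untreated. With it at the 75th percentile 3 genes were measured, the median with both factors was -1.03 against untreated and -0.47 against IL-17A, and 0 genes passed 2-fold against IL-17A. With the floor added to the signal 0 passed with IL-17A against untreated and 0 with both factors against FGF2. With all probe sets averaged the median of both factors against IL-17A was -0.51 over 5 genes. At 1.5-fold 2 genes were lower with IL-17A (Alpi and Dpp4) and 2 with FGF2 (Dpp4 and Mep1b). Dpp4 passed the floor only in untreated cells and with FGF2, which favoured ratios below 0. At 3-fold 0 were lower with IL-17A, 1 with both factors against untreated, 0 against IL-17A and 0 against FGF2. Without a floor, chosen after seeing the data, both factors had 4 genes lower against untreated, and medians of -1.21 against untreated, -0.64 against IL-17A and -0.51 against FGF2. Floors and averaging change which genes are measured. Apart from the floor at the 25th percentile, these counts have no share of all genes at the same setting beside them. They describe the settings and are not results about the hydrolase genes. Both scalings kept every count and median of the hydrolases in that range, and the medians of all genes moved by no more than 0.03. The median difference between the joint response and the sum of the single ones lay between -0.12 and 0.10 and changed sign. Over all alternatives the log2 ratio of Alpi to untreated was -1.66 to -1.48 with both factors and -1.09 to -0.99 with IL-17A, and that of Mep1b with both factors -1.29 to -1.03.

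Over all measured genes the counts depended on floor and fold: with both factors against untreated 44 to 799 genes were lower (212 as reported) and 43 to 410 higher (111), with IL-17A 3 to 250 lower (28) and 16 to 216 higher (46), and with FGF2 22 to 591 lower (118) and 18 to 287 higher (58). With both factors against IL-17A 20 to 501 were lower (105) and 18 to 343 higher (67), and against FGF2 1 to 279 lower (33) and 17 to 282 higher (45). Signals of Lct, Treh and 3 of 4 Dpp4 probe sets lay under the floor, where no direction can be read, and without replicates no difference has an error of its own.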
